A study of Homo sapiens with 4 samples.

Results

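Fibronectin and the other adhesive glycoproteins that cells secrete into their matrix were followed at the RNA level in lung adenocarcinoma (LAD) cells carrying a constitutively active AKT1. The group holds 10 genes of 60558 gene identifiers in the files. They are the fibronectin gene FN1, the matricellular genes TNC (tenascin C), THBS1 and THBS2 (thrombospondins), SPARC, CCN1 and CCN2, the fibrillin genes FBN1 and FBN2, and VCAN (versican). They were chosen as matrix genes that are neither collagens nor laminins, with the myr-AKT1 against vector differences of these same libraries already known, so those differences are given as descriptions without a test.

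Both cell lines are established human LAD lines grown in culture, and each was sequenced with and without the construct. A549-vector and A549-myr-AKT1 cells made up a pair of groups and the HCC827 cells another, with 1 strand-specific RNA library in each group. Myr-AKT1 is AKT1 with an added myristoylation signal, which anchors it at the membrane in an active state, and the vector cells of the same line carried the vector control. The study built these lines to look for RNAs induced by active AKT. Since each condition had 1 library, no difference within a line has a replicate check, and the 95% intervals given are Clopper-Pearson intervals that cover counting error only. The files do not separate reads of the construct from reads of the cell's own AKT1 gene. The normalized count of AKT1 was 6297 in A549-myr-AKT1 and 4243 in A549-vector cells, and in HCC827 cells it was 4805 with myr-AKT1 and 2175 with the vector, so it was the higher value in the myr-AKT1 library of each line.

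The extracellular matrix around a cell is a mesh of fibrous proteins, proteoglycans and glycoproteins to which cells hold on through integrins. Fibronectin is assembled by cells into fibrils that collagens, fibrillins and growth factors dock on. Matricellular proteins are secreted into the same mesh but mostly tune adhesion and growth factor signals rather than bear load, and fibrillins form the microfibrils that store latent TGF-beta. In normal lung these proteins come largely from stromal cells, and carcinoma cells can make them as well.

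Recovered reads per library ranged from 16322183 to 33530317. All 10 genes had reads in both A549 libraries and 9 had reads in both HCC827 libraries, where FBN2 was at 0. The 6 epithelial markers (EPCAM, CDH1, KRT8, KRT18, KRT19 and CLDN4) were detected in all 4 libraries. The 10 fibroblast markers summed to 24.5 CPM (reads scaled to the library total) with the vector and 79.8 with myr-AKT1 in A549 cells, and to 4.39 and 17.5 in HCC827 cells. COL1A2, a defining fibroblast collagen, was at 0 in every library, while 3 of the 10 were at 0 with the vector and 1 with myr-AKT1 in A549 cells, and 4 and 3 in HCC827 cells. The summed level of these markers was thus higher with myr-AKT1 in both lines, as was FN1, and their part in the results on the matrix genes was not tested. The 6 epithelial markers summed to 5876 CPM with the vector and 4961 with myr-AKT1 in A549 cells, and to 7195 and 4255 in HCC827 cells. In A549-myr-AKT1 cells KRT8 held 55819 and KRT18 57166 of the 124963 reads behind that sum. Both were lower with myr-AKT1 in A549 cells, while the other 4 were higher. In HCC827 cells 2 of the 6 were higher and 4 lower. The 6 blood and endothelial markers summed to 0.537 CPM with the vector and 5.99 with myr-AKT1 in A549 cells, and to 4.39 and 7.47 in HCC827 cells. In A549 cells the endothelial cadherin gene CDH5 had 1 read with the vector and 59 with myr-AKT1, PECAM1 had 13 and 61, and VWF had 1 and 0. These low sums were thus also higher with myr-AKT1, most of all in A549 cells, and their part in the results was not tested. From such bulk libraries, fewer cells making an RNA and less of the RNA per cell cannot be told apart.

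The stretch just before the transcription start is shown for 4 of the genes, because FN1 alone held a cAMP response element and the other 3 held TEAD motifs, which THBS2 and CCN2 held more than once. Promoter windows of 250 bases before to 50 bases after the start were taken from RefSeq on GRCh38.p14 and found for 9 of the 10 genes, all but CCN1. The 250 bases before the start are printed 5′ to 3′ on the strand of the gene. Capitals mark the cAMP response element TGACGTCA in FN1 and, in the other 3, the TEAD motif GGAATG or its reverse complement CATTCC. TEAD factors are the DNA-binding partners of YAP and TAZ, the coactivators that respond to cell stretch and adhesion. The windows lie at chr2:215436069-215436318 on the minus strand for FN1, chr15:39580829-39581078 on the plus strand for THBS1, chr6:169253847-169254096 on the minus strand for THBS2 and chr6:131951373-131951622 on the minus strand for CCN2.
FN1: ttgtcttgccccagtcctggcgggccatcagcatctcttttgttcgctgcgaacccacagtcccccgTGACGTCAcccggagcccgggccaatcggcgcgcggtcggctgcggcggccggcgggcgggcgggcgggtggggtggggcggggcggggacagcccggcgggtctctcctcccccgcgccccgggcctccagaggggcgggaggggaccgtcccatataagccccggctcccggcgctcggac
THBS1: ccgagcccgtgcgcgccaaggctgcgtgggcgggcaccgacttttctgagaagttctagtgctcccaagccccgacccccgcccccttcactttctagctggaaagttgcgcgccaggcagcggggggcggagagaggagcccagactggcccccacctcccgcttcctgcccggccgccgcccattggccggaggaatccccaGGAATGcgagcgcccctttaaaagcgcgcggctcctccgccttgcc
THBS2: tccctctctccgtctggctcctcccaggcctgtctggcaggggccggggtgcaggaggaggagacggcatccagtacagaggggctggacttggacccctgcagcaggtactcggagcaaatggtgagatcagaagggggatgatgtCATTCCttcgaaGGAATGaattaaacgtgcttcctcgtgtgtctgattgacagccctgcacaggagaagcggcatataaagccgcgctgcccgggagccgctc
CCN2: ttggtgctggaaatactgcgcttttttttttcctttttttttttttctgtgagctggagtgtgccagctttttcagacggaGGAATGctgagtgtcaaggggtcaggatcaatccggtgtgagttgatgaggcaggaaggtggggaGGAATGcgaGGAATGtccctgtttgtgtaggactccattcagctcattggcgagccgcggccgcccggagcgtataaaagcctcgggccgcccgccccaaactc

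Of the 9 promoter windows, 5 held GGAATG on either strand, against 14.0% of 35116 RefSeq promoters of the same length. Those were THBS1, THBS2, SPARC, FBN1 and CCN2. CCN2 held it 3 times, from -169, -104 and -95, and THBS2 held it once on each strand, from -103 and -91, counted from the start site at the first base of the motif. The FN1 window alone held TGACGTCA, from -183 to -176, and 1.85% of all promoters did. TGANTCA, the AP-1 motif, was in none of the 9 windows against 7.71% of all promoters, and GTAAACA, a FOXO motif, was in none against 3.42%. The STAT motif TTCNNNGAA was in the THBS1 window only, from -207, against 7.66% of all promoters. The GC box GGGCGG was in 6 windows against 45.0% of promoters, TATAAA was in THBS2 and CCN2 against 11.5%, and the CArG box was in none against 1.29%. Motifs were searched on both strands, and overlapping matches of a motif were counted separately. RefSeq starts can lie inside the GENCODE span of a gene, most of all that of FBN2. The genes with TEAD letters in the window did not all share a direction. In A549 cells SPARC, FBN1 and CCN2 were higher with myr-AKT1, at log2 fold changes of 4.66, 2.06 and 0.66. THBS1 was close to its vector level there, at -0.19, and THBS2 had too few reads for a direction. In HCC827 cells SPARC was higher, at 1.37, and THBS1 and THBS2 were lower, at -2.24 and -1.90. FBN1 and CCN2, at 0.17 and 0.95 in that line, had counting intervals that included 0. The part of the motif in these differences was not tested.

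FN1 was higher with myr-AKT1 in both lines, and it was the most abundant of the 10 genes by reads in each myr-AKT1 library. The gene (ENSG00000115414) lies at chr2:215360440-215436073 on the minus strand of GRCh38, and its canonical transcript has 46 exons and 8390 bases. Its normalized count, which is the read count divided by the size factor of the library, was 27855 in A549-vector and 275812 in A549-myr-AKT1 cells. In HCC827 cells it was 6679 with the vector and 23098 with myr-AKT1. The log2 fold change was 3.31 (95% interval 3.29 to 3.32), or 9.90-fold, in A549 cells and 1.79 (1.75 to 1.83), or 3.46-fold, in HCC827 cells. By reads, FN1 held place 87 among all genes of A549-vector and place 3 in A549-myr-AKT1 cells, and it moved from place 491 to place 50 between the HCC827 libraries. It took 0.0951% of all reads in A549-vector (95% interval 0.0941 to 0.0962) and 0.956% in A549-myr-AKT1 cells (0.952 to 0.960). Ranked by log2 fold change, FN1 stood at place 401 from the top of 18750 genes in A549 and at place 991 of 17358 genes in HCC827 cells.

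In A549 cells the log2 fold change exceeded 1 for 5 of the 10 genes, namely SPARC, FN1, TNC, FBN1 and THBS2, and was below -1 for 1, namely CCN1. In the whole table, 15.1% were above 1 and 9.87% below -1 among genes whose normalized counts averaged at least 10 over the 2 libraries. Of the 10 genes, 9 passed that filter, THBS2 being the exception, and of these 9, 4 were above 1 and 1 below -1. The median log2 fold change of the 10 genes was 1.52, and 0.98 over the 9 without THBS2; that of all genes tested was -0.03. In HCC827 cells 2 genes were above 1, namely FN1 and SPARC, and 4 were below -1, namely THBS1, THBS2, VCAN and TNC. There, 14.1% of all genes tested were above 1 and 12.4% below -1, and FBN2, at 0 reads in both libraries, was the gene that failed the filter. The median of the 9 genes with reads was 0.10 in HCC827 cells beside -0.04 for all genes tested. Because the group was chosen on these differences, the counts describe it and do not test it.

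**Figure D1:**
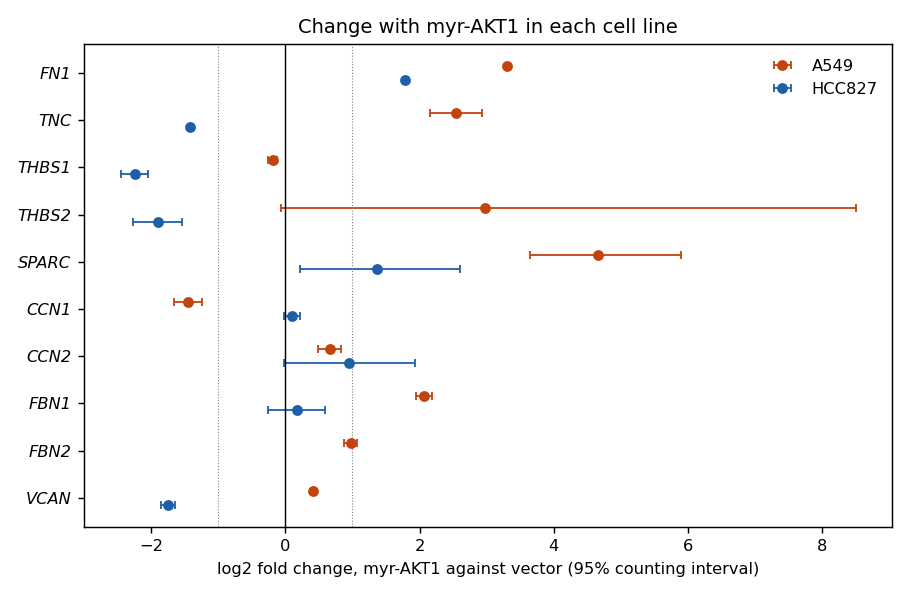
Log2 fold change of normalized counts, myr-AKT1 against vector, for the 10 matrix glycoprotein genes in A549 (orange) and HCC827 cells (blue), with 95% counting intervals as bars and dotted lines at 1 and -1. FN1 and SPARC lie to the right of 1 in both lines, TNC and VCAN lie on opposite sides of 0 in the 2 lines, and FBN2 has no HCC827 value because both libraries were at 0.

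Of the 6 matricellular genes, TNC was the one whose counting intervals lay on opposite sides of 0 in the 2 lines. Tenascin C, an anti-adhesive protein that is laid down in wounds and tumor stroma, had a normalized TNC count of 62.0 in A549-vector and 360 in A549-myr-AKT1 cells. In HCC827 cells the same gene was at 28061 with the vector and at 10483 with myr-AKT1. TNC was therefore the higher value with myr-AKT1 where its level was low and the lower value where its level was high. The log2 fold change was 2.54 (2.16 to 2.93) in A549 and -1.42 (-1.46 to -1.39) in HCC827 cells. No test of that difference was possible with 1 library per condition. The TNC gene (ENSG00000041982) lies at chr9:115019575-115118207 on the minus strand and overlaps DELEC1 on the other strand, which had 52 reads in A549-vector and 39 in A549-myr-AKT1 cells beside 71 and 314 for TNC. TNC stood at place 48 among all genes by reads in HCC827-vector cells and at place 224 in HCC827-myr-AKT1 cells.

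Thrombospondins are secreted glycoproteins that restrain angiogenesis, and thrombospondin 1 can also release active TGF-beta from its latent form. The normalized count of THBS1 was 3348 in A549-vector and 2933 in A549-myr-AKT1 cells, and 1360 in HCC827-vector and 287 in HCC827-myr-AKT1 cells. The A549 libraries were thus near each other, at -0.19 (-0.26 to -0.12) on the log2 scale, and the HCC827 libraries stood apart, at -2.24 (-2.45 to -2.04), or 4.74-fold lower with myr-AKT1. THBS2 was nearly unread in A549 cells, with 1 read in the vector and 6 reads in the myr-AKT1 library, so its log2 fold change of 2.98 has an interval from -0.07 to 8.50 and a direction was not detectable at this depth. Its normalized count in HCC827 cells was 342 with the vector and 91.9 with myr-AKT1, which gives -1.90 on the log2 scale (-2.27 to -1.53). THBS1 (ENSG00000137801) lies at chr15:39581079-39599466 on the plus strand and THBS2 (ENSG00000186340) at chr6:169215780-169254050 on the minus strand. Both thrombospondin genes were therefore lower with myr-AKT1 in HCC827 cells, at places 394 and 610 from the bottom of 17358 genes for THBS1 and THBS2. The antisense gene THBS2-AS1 overlaps THBS2 and had 44 and 27 reads in the vector and myr-AKT1 libraries of A549 cells and 28 and 18 in those of HCC827 cells. The counting setting for strand is not given in the sources used here, so the few THBS2 reads of A549 cells, like part of the TNC reads there, cannot be assigned to a strand with certainty.

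SPARC, which binds collagen and loosens adhesion, was a low gene (ENSG00000113140, chr5:151661096-151686975, minus strand). It had 8 reads in A549-vector and 154 in A549-myr-AKT1 cells, and 11 in HCC827-vector and 18 in HCC827-myr-AKT1 cells. The normalized counts were 6.99 and 176 in the A549 pair and 8.74 and 22.6 in the HCC827 pair, so the myr-AKT1 library was the higher in each line. In A549 cells the log2 fold change was 4.66 with a wide interval (3.64 to 5.90), at place 165 from the top of 18750 genes. In HCC827 cells it was 1.37 (0.21 to 2.60), so that the size of this difference is poorly fixed.

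CCN1 and CCN2 encode secreted proteins that bind integrins and heparan sulfate, and both genes are textbook targets of YAP and TAZ. CCN1 (ENSG00000142871) lies at chr1:85580761-85584589 on the plus strand and CCN2 (ENSG00000118523) at chr6:131948176-131951372 on the minus strand, each with 5 exons. CCN1 had a normalized count of 773 in A549-vector and 283 in A549-myr-AKT1 cells, and of 1283 in HCC827-vector and 1375 in HCC827-myr-AKT1 cells. It was the only gene of the group below -1 in A549 cells, at -1.45 (-1.66 to -1.25), and its HCC827 interval included 0, at 0.10 (-0.01 to 0.21). CCN2 had a normalized count of 471 in A549-vector and 743 in A549-myr-AKT1 cells, and of 14.3 in HCC827-vector and 27.7 in HCC827-myr-AKT1 cells. The log2 fold change of CCN2 was 0.66 (0.49 to 0.83) in A549 and 0.95 (-0.01 to 1.94) in HCC827 cells, the latter from 18 and 22 reads. The 2 genes thus exchanged places in A549 cells. Per kilobase of canonical transcript, the scaled count of CCN1 was 1.69 times that of CCN2 in A549-vector cells and 0.391 times that of CCN2 in A549-myr-AKT1 cells. With the union of exons as the length, the 2 genes were nearly level in A549-vector cells, at 174 for CCN1 and 168 for CCN2. In A549-myr-AKT1 cells they were then at 68.5 and 285. In HCC827 cells CCN1 stayed far above CCN2 per kilobase, by 92.1 times with the vector and 51.0 times with myr-AKT1.

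Fibrillins are the backbone of microfibrils, and FBN2 is best known from developing tissue while FBN1 is the main form in the adult. FBN1 (ENSG00000166147) lies at chr15:48408313-48645721 and FBN2 (ENSG00000138829) at chr5:128257909-128659185, both on the minus strand, with 66 and 65 exons. FBN1 had a normalized count of 639 in A549-vector and 2670 in A549-myr-AKT1 cells, a log2 fold change of 2.06 (1.94 to 2.18). In HCC827 cells it was at 93.0 and 104, and the interval of its log2 fold change included 0, at 0.17 (-0.26 to 0.59). FBN2 had a normalized count of 1343 in A549-vector and 2641 in A549-myr-AKT1 cells, a log2 fold change of 0.98 (0.88 to 1.07). With 0 reads in both HCC827 libraries it was below the limit that a count of 0 allows, which is 3 reads per library. Per kilobase, FBN1 was at 0.448 times the level of FBN2 in A549-vector cells and at 0.952 times that level in A549-myr-AKT1 cells. The 2 fibrillin levels thus lay closer together with myr-AKT1.

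Versican, the large chondroitin sulfate proteoglycan that binds hyaluronan, had a normalized VCAN count of 21410 in A549-vector and 28509 in A549-myr-AKT1 cells. In HCC827 cells it was at 3960 with the vector and 1177 with myr-AKT1. VCAN was thus slightly higher with myr-AKT1 in A549 cells, at 0.41 on the log2 scale (0.39 to 0.44), and 3.37-fold lower in HCC827 cells, at -1.75 (-1.85 to -1.65). As for TNC, the signs were opposite in the 2 lines, and this difference was not tested. VCAN (ENSG00000038427) lies at chr5:83471618-83582303 on the plus strand. It was the second gene of the group by level in both A549 libraries.

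**Figure D2:**
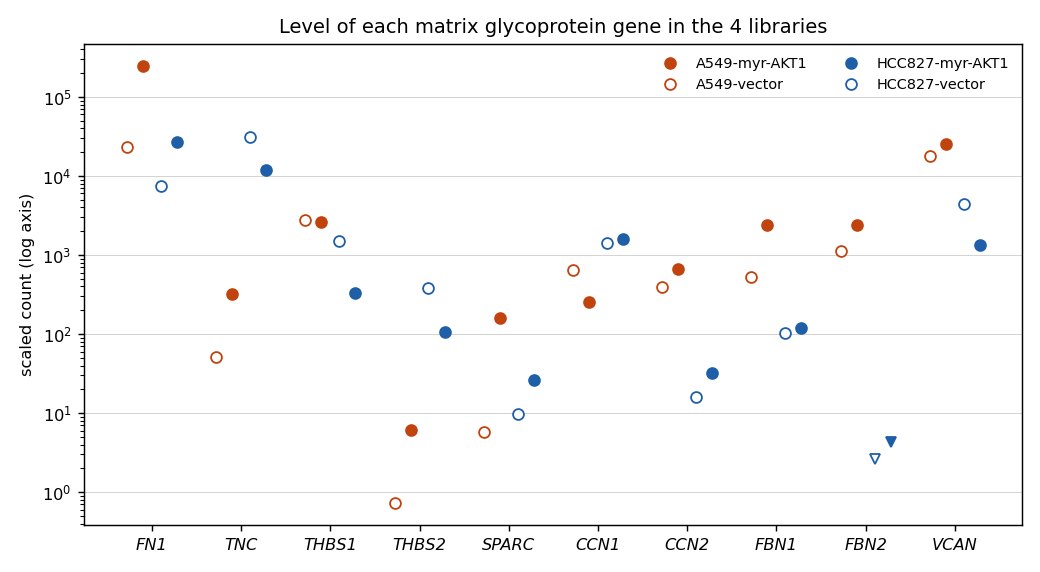
Scaled count (recovered reads divided by size factors set over all 4 libraries, log axis) of each gene in A549 (orange) and HCC827 cells (blue), with open symbols for the vector and filled symbols for the myr-AKT1 library. Triangles for FBN2 in HCC827 cells mark the limit of 3 reads for a count of 0; FN1 is the highest gene in every library except HCC827-vector, where TNC is higher.

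The makeup of the group differed with the construct as well as with the line. The 10 genes together took 0.191% of reads with the vector and 1.09% with myr-AKT1 in A549 cells, and 0.193% and 0.179% in HCC827 cells. In A549 cells nearly the whole of that gap was FN1, which made up 49.8% of the reads of the group with the vector and 87.8% with myr-AKT1. Without FN1, the scaled counts of the other 9 genes summed to 23407 in A549-vector and 34325 in A549-myr-AKT1 cells. In HCC827 cells the share of the group in the library was close between the conditions while its composition was not. TNC made up 67.1% of the reads of the group in HCC827-vector and 28.6% in HCC827-myr-AKT1 cells, and FN1 made up 16.0% and 63.0%. Without FN1, the scaled sum was 39059 with the vector and 15605 with myr-AKT1 in that line. Per kilobase of transcript, FN1 was at 0.241 times the level of TNC in HCC827-vector and at 2.23 times its level in HCC827-myr-AKT1 cells. Against VCAN, FN1 was 1.91 times as high per kilobase in A549-vector and 14.2 times as high in A549-myr-AKT1 cells, and 2.48 and 28.9 times as high in the HCC827 pair. The size of these ratios depends on the length used, here the canonical transcript. With the union of exons, FN1 and VCAN were at 1350 and 1217 scaled counts per kilobase in A549-vector and 14350 and 1740 in A549-myr-AKT1 cells. FN1 and TNC were then at 1543 and 1257 in HCC827-myr-AKT1 cells.

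Ordered per kilobase, the A549-vector library ran FN1, VCAN, THBS1, CCN1, CCN2, FBN2, FBN1, TNC, SPARC and THBS2 from high to low. With myr-AKT1, CCN1 dropped behind CCN2, FBN2 and FBN1, and SPARC stood ahead of TNC. The HCC827-vector library ran TNC, FN1, CCN1, VCAN, THBS1, THBS2, FBN1, CCN2, SPARC and FBN2. With myr-AKT1, FN1 stood ahead of TNC and CCN2 ahead of FBN1. FBN1 at 10.3 and CCN2 at 13.6 scaled counts per kilobase in HCC827-myr-AKT1 cells rest on 83 and 22 reads, and in the vector library of that line their order turned when the union of exons was used as the length.

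The 2 lines were also compared with each other, a contrast that the choice of the genes did not use. These values are scaled counts, which are on a common scale for all 4 libraries. Between the vector libraries 5 genes were above 1 in A549 over HCC827 on the log2 scale, namely FN1, CCN2, FBN1, FBN2 and VCAN, and 3 were below -1, namely TNC, THBS2 and CCN1. Among all genes tested in that comparison, 20.7% were above 1 and 19.7% below -1. Of the 10 genes, 9 passed the filter of a mean of at least 10, SPARC being the exception, and the 5 and 3 are among these 9. FBN2 is counted as above 1 although it had 0 reads in HCC827-vector cells, so its value is a bound. TNC had a scaled count of 51.7 in A549-vector and 31206 in HCC827-vector cells, 603-fold higher in HCC827 cells. THBS2 had 1 read in A549-vector and 430 in HCC827-vector cells, a log2 ratio of -9.03 (-14.3 to -6.54). FBN2 was at 1121 in A549-vector cells and at 0 in HCC827-vector cells, at least 423-fold higher in A549 cells against 3 reads. CCN2 was 24.7-fold, FBN1 5.16-fold, VCAN 4.06-fold and FN1 3.13-fold higher in A549-vector cells. THBS1 differed less between the vector libraries, at a log2 ratio of 0.89 (0.80 to 0.97), and SPARC had an interval that included 0, at -0.74 (-2.26 to 0.71), from 8 and 11 reads. TNC and THBS2 were thus far higher in HCC827-vector than in A549-vector cells, and FBN2 and CCN2 far lower. Of TNC and THBS2, TNC alone was abundant in HCC827-vector cells, at place 48 by reads, beside place 8832 for THBS2.

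Between the myr-AKT1 libraries some of these gaps were wider and others narrower. The A549 over HCC827 ratio was 9.30-fold for FN1, 18.9-fold for VCAN, 7.96-fold for THBS1 and 19.9-fold for FBN1, each wider than between the vector libraries. TNC and THBS2 remained the higher in HCC827 cells, but by 37.4-fold and 17.2-fold, so their gaps were narrower. CCN1 was 6.24-fold higher in HCC827-myr-AKT1 cells against 2.21-fold between the vector libraries. SPARC was 6.06-fold higher in A549 than in HCC827 cells when both carried myr-AKT1, a log2 ratio of 2.60 (1.89 to 3.39). CCN2 kept nearly the same gap, at 20.9-fold. These ratios carry the same libraries as the within-line changes and are another view of them.

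**Figure D3:**
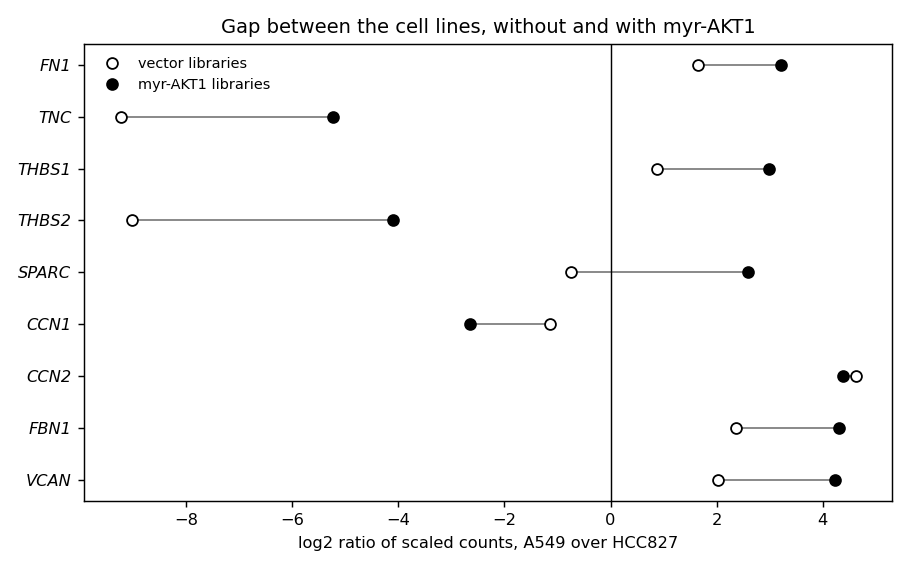
Log2 ratio of scaled counts, A549 over HCC827, between the vector libraries (open) and between the myr-AKT1 libraries (filled) for the 9 genes with reads in all 4 libraries. FN1, THBS1, FBN1 and VCAN lie farther to the right with myr-AKT1, TNC and THBS2 lie nearer to 0, and CCN2 hardly differs.

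The genes whose 4 libraries lay nearest to those of FN1 were SUSD4, CCDC80, LNCAROD, MMP7 and TPPP3. Nearness was the Euclidean distance of log2 scaled counts centred over the 4 libraries, among 14045 genes with a scaled mean of at least 50. The distances were 0.39 for SUSD4, 0.42 for CCDC80, 0.51 for LNCAROD, 0.86 for MMP7 and 0.91 for TPPP3. SUSD4, LNCAROD and TPPP3 had scaled counts of 177, 385 and 384 in A549-myr-AKT1 cells. In HCC827-vector cells they were at 3.54, 8.84 and 6.19, so their distances rest on few reads there. CCDC80, itself a secreted matrix protein, had scaled counts of 1083 and 8905 in the vector and myr-AKT1 libraries of A549 cells and of 297 and 1404 in those of HCC827 cells. MMP7, a matrix-degrading protease, was at 904 and 6906 in the A549 pair and at 148 and 488 in the HCC827 pair. Within the group, SPARC fell just under that scaled mean of 50 and was not compared. Of the members compared, FBN1 was nearest to FN1, with a distance of 1.70 at place 128. TNC was farthest, with 9.93 at place 13836. With 4 libraries, such distances are a description only.

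Other matrix genes were read from a list of 56 relatives, which are further glycoproteins and proteoglycans of the matrix. Of 39 that passed the filter in A549 cells, 21 were above 1 and 4 below -1, with a median log2 fold change of 1.13. Of 26 that passed in HCC827 cells, 13 were above 1 and 3 below -1, with a median of 0.94. Over all genes tested, 15.1% were above 1 and 9.87% below -1 in A549, and 14.1% and 12.4% in HCC827 cells. In A549 cells lumican (LUM), a small proteoglycan that spaces collagen fibrils, had a normalized count of 22.7 with the vector and 348 with myr-AKT1. TNXB was at 43.7 and 322 in A549 cells and at 54.8 and 214 in HCC827 cells, though it shares sequence with a near-identical pseudogene and its reads are uncertain. The basement membrane proteoglycan gene HSPG2 was at 443 in HCC827-vector and 1851 in HCC827-myr-AKT1 cells, and LTBP4, which holds latent TGF-beta in the matrix, was at 42.9 and 155. SPOCK1, a testican proteoglycan gene, was at 119 in A549-vector and 656 in A549-myr-AKT1 cells. It went the other way in HCC827 cells, at 251 with the vector and 107 with myr-AKT1, a log2 fold change of -1.23 (-1.59 to -0.88). LUM is also among the fibroblast markers, where COL1A1 had log2 fold changes of 3.32 in A549 and 2.01 in HCC827 cells.

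Receptors for these proteins, mostly integrin subunits and syndecans, formed a list of 18 genes. In A549 cells 6 of the 16 that passed the filter were above 1 and 0 below -1, with a median of 0.86. In HCC827 cells 2 of 13 were above 1 and 0 below -1, with a median of 0.34. The shares above 1 over all genes were 15.1% in A549 and 14.1% in HCC827 cells, and those below -1 were 9.87% and 12.4%. ITGA5, the alpha chain of the main fibronectin receptor, had a normalized count of 2607 in HCC827-vector and 10777 in HCC827-myr-AKT1 cells, a log2 fold change of 2.05 (1.99 to 2.11). LRP1, an endocytic receptor that clears thrombospondins among many ligands, was at 1448 and 7010 in the A549 pair and at 478 and 3667 in the HCC827 pair. In A549 cells the integrin beta chain genes ITGB3, at 18.3 and 133, and ITGB6, at 121 and 628, were also higher with myr-AKT1. ITGB8 in HCC827 cells was at 1172 and 2158.

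A list of 18 enzymes and linkers of matrix assembly had 5 genes above 1 and 1 below -1 of 15 that passed in A549 cells, with a median of 0.65. In HCC827 cells the list had 2 above 1 and 1 below -1 of 13, with a median of 0.50. Beside these, 15.1% of all genes tested were above 1 and 9.87% below -1 in A549, and 14.1% and 12.4% in HCC827 cells. The transglutaminase gene TGM2, whose product crosslinks fibronectin and also helps integrins bind it, was at 10972 in A549-vector and 45353 in A549-myr-AKT1 cells. BMP1, a protease that matures procollagens, and LOXL2, a lysyl oxidase, had log2 fold changes of 2.10 (1.99 to 2.20) and 1.83 (1.75 to 1.92) in that line. In HCC827 cells the hyaluronan link protein gene HAPLN3 was at 6.36 and 104, and LOX, another crosslinking oxidase, was at 22.3 and 184. PLOD1, a lysyl hydroxylase gene, was at 1432 with the vector and 2541 with myr-AKT1 there.

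The 22 YAP/TAZ-TEAD targets, a list that includes CCN1 and CCN2, did not share a direction. In A549 cells 4 were above 1 and 3 below -1 of 22 that passed, with a median of 0.05. In HCC827 cells 6 were above 1 and 4 below -1 of 21, with a median of 0.16. Among all genes tested, 15.1% were above 1 and 9.87% below -1 in A549, and 14.1% and 12.4% in HCC827 cells. CCDC80 had log2 fold changes of 2.94 (2.86 to 3.02) in A549 and 2.19 (2.01 to 2.38) in HCC827 cells. NT5E, the ectonucleotidase that makes adenosine, was at 11077 in HCC827-vector and 942 in HCC827-myr-AKT1 cells, and FJX1 was at 332 and 56.6. In A549 cells IGFBP3, which binds insulin-like growth factors, was at 9562 with the vector and 67327 with myr-AKT1. The TGF-beta ligand gene TGFB2 was at 2772 and 12129 there. In HCC827 cells IGFBP3 was also higher with myr-AKT1, at 8945 and 34203, while TGFB2 was lower, at 1066 and 746.

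The 12 feedback genes and targets of TGF-beta and SMAD signaling all passed the filter in both lines. In A549 cells 7 were above 1 and 0 below -1, with a median of 1.42, and all 12 had positive values. In HCC827 cells 5 were above 1 and 0 below -1, with a median of 0.71, and 9 were positive. For all genes tested, 15.1% were above 1 and 9.87% below -1 in A549, and 14.1% and 12.4% in HCC827 cells. TGFBI, a secreted adhesion protein that binds fibronectin and collagens, was at 17687 in A549-vector and 80623 in A549-myr-AKT1 cells. In HCC827 cells TGFBI was 1 of the 3 negative genes, at 11260 with the vector and 9096 with myr-AKT1. The AP-1 subunit gene JUNB was at 980 and 3771 in the A549 pair. In HCC827 cells BAMBI, a decoy receptor of the pathway, was at 298 with the vector and 851 with myr-AKT1. LTBP2 was at 192 and 411 in that line, and the ligand gene TGFB1 at 243 and 498. No test was run on any of these lists, and TGF-beta activity was not measured.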

How the data were processed

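RNA of 4 cultures, 1 per condition, was extracted with Trizol and sequenced strand-specifically. The Methods name poly(A) selection, the labels rRNA depletion. Reads were trimmed, masked, mapped to hg38 with Bowtie2 and counted with HTSeq, per the Methods and the submitters' processing notes. The Methods name RPKM, but the signal that the authors deposited is, by its values, the read count over a size factor that each library has and that was set within its line. Reads were recovered by dividing by the smallest positive value: every value with reads was within 0.001 of a whole number except 1 in each vector library, so 99.9961% to 100% of values came out whole. Names came from GENCODE release 44, GRCh38 (60261 of 60558 identifiers matched). Gene identities, canonical transcript lengths and overlaps came from that annotation, promoters from RefSeq.

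Within a line, log2 fold changes were ratios of deposited values without a pseudocount. Between lines, reads were divided by median-of-ratios size factors over the 4 libraries. With 4-library factors the median of all genes in A549 cells moved from -0.03 to 0.07. Intervals are 95% Clopper-Pearson intervals, and a count of 0 was given a floor of 3 reads. Genes counted as past a fold had a mean of at least 10 and a log2 fold change above 1 or below -1. The count of the 10 members in A549 cells also took in THBS2, which did not reach that mean. The members and gene lists were chosen with earlier results of these data known. The text names all 10 members, AKT1, per list and line up to 3 genes with the largest absolute change among those with a mean of at least 50, and the 5 genes nearest to FN1, except 1 gene that is not reported here; of the markers, summed levels and genes at 0 are given, and the single markers with values beyond that rule were chosen after their values were seen.

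For the whole table, limma 3.58.1 on log2(value + 1) with cell line as a block and 1 residual degree of freedom called 585 of 19314 genes at a Benjamini-Hochberg adjusted p under 0.05, 250 of them higher with myr-AKT1. On recovered reads, edgeR 4.0.16 (quasi-likelihood) called 424 and DESeq2 1.42.0 called 1139. No p is given for a member. Python 3.11.15, pandas 2.3.3, scipy 1.17.1 and R 4.3.3 were used.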

Additional observations from a re-analysis of the deposited data

Results flagged for a closer look

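TNC and VCAN were flagged because their changes with myr-AKT1 had opposite signs in the 2 lines. The log2 fold change of TNC was 2.54 in A549 and -1.42 in HCC827 cells, and that of VCAN was 0.41 in A549 and -1.75 in HCC827 cells. In both genes each counting interval lay on its own side of 0, and the signs were the same under every scaling tried. This difference was not tested, as each condition had 1 library.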

How the results depend on the processing

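Each condition had 1 culture, so every difference includes whatever else differed between 2 cultures, and depth limits SPARC, CCN2 and FBN2 in HCC827 cells and THBS2 in A549 cells. Of 106 recomputed values of single genes, 96 moved by less than their counting interval, 10 moved further and 0 changed sign. FN1 was among those that moved further, at 3.41 in A549 and 1.84 in HCC827 cells with size factors set over the 4 libraries. The narrow counting intervals of FN1 thus leave out the effect of scaling. The median over the 10 genes in A549 cells was 1.62 with size factors set over the 4 libraries. Those factors put 6 genes above 1 in A549 cells, with FBN2 at 1.08. With the factors set within the line, 15.1% of all genes tested were above 1 there. Scaling by total reads put 3 genes above 1 in HCC827 cells, with CCN2 at 1.03. In that line 14.1% of all genes tested were above 1 with the factors set within the line. At a log2 fold change of 2, 5 genes of the group, THBS2 included, were above the limit in A549 cells and 0 were below the negative limit. In HCC827 cells 0 were above and 1 below. Of all genes tested, 1613 of 18750 in A549 and 1342 of 17358 in HCC827 cells passed that limit in either direction. Genes past the fold in the whole table numbered 2679 in A549, 2692 in HCC827 and 4655 between the vector libraries with a mean of at least 50, and 1613, 1342 and 3905 at a log2 fold change of 2. With at least 1 read in both libraries they numbered 7442 in A549 and 7182 in HCC827 cells, since that filter admits genes with few reads. Across both lines, DESeq2 called 1139 genes, and limma called 1995 with at least 1 read in any library. Limma called 0 genes with a pseudocount of 0.1 (3184 at an unadjusted p under 0.05) and 0 without the cell line term (631 unadjusted), beside 585 in the reported fit, 424 by edgeR and 1139 by DESeq2; the cause was not tested.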

Other observations

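Between the vector libraries, several genes around the matrix glycoproteins were at 0 or far lower in 1 of the lines, as scaled counts. SMOC1, at 416 in A549-vector cells, NID2, at 239, and EMILIN2, at 124, all genes of secreted matrix proteins, had 0 reads in HCC827-vector cells. ITGB6, the beta chain of an epithelial integrin that binds fibronectin and latent TGF-beta, was at 101 in A549-vector and 4144 in HCC827-vector cells. The epithelial markers did not share a direction with myr-AKT1. KRT8 and KRT18 were lower with myr-AKT1 in both lines, at log2 fold changes of -0.36 and -0.38 in A549 and -1.81 and -1.75 in HCC827 cells. CLDN4 and CDH1 were higher in both, at 5.06 and 1.39 in A549 and 0.47 and 0.31 in HCC827 cells. KRT19 was at 2.65 in A549 and -0.75 in HCC827 cells, and EPCAM at 0.59 and -0.22.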
